A study of Mus musculus with 2 samples.

Results

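The miR-181 family was followed in the hearts of newborn mice through the 6 genes Mir181a-1, Mir181b-1, Mir181a-2, Mir181b-2, Mir181c and Mir181d, chosen by name from the 1973 miRNA genes of the deposited tables. All 6 had a row. The hearts came from 2 pups of strain B6NCrl at postnatal day 0, untreated as far as the labels say, with no second condition. Replicate 2 was the single heart of pup 3 and replicate 1 that of pup 2, both from pregnant female 1, with 1 small RNA library per heart and inserts below 30 nt. The series thus allowed a description of which miR-181 loci the newborn heart expressed, in what proportions, and how far 2 littermates differed. Whole hearts mix cell types, so fewer cells of a type and less RNA per cell cannot be told apart.

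A miRNA is cut from a hairpin, and a mature strand from the 5′ arm (5p) or the 3′ arm (3p) guides repression of messenger RNAs through its seed, bases 2 to 8. The miR-181 family is encoded by pairs of neighbouring hairpins at separate loci, each pair read from a shared primary transcript. miR-181a is known for setting the sensitivity of T cell receptor signalling in developing thymocytes. miR-181b is known for restraining NF-κB signalling in vascular endothelium. miR-181c has been described in rat heart as a repressor of the mitochondrial gene for cytochrome c oxidase subunit 1.

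The mature sequences, credited to RefSeq on GRCm38.p6, are shown first because they decide which reads can be placed on 1 locus. The 12 mature entries of the 6 genes held 10 distinct sequences. The 5p strands, with the seed in capitals, were:
miR-181a-5p: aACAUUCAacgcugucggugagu
miR-181b-5p: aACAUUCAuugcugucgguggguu
miR-181c-5p: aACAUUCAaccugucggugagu
miR-181d-5p: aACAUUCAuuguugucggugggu
All 4 carried the seed ACAUUCA, and no other mature name in the RefSeq table did. miR-181c-5p lay 1 edit from miR-181a-5p, an inserted or deleted base. miR-181d-5p differed from miR-181b-5p by C12U over the 23 bases compared, counted from the 5′ end, and was 1 base shorter. The 5p pairs thus fell into an a and c type and a b and d type.

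The 5p strand of miR-181a was the same at Mir181a-1 and Mir181a-2, and that of miR-181b was the same at Mir181b-1 and Mir181b-2. Only Mir181c and Mir181d had a 5p strand of their own. Of the 18-nt windows of the 5p strand, 0 of 6 were unique for either Mir181a gene and 0 of 7 for either Mir181b gene. All 5 windows of miR-181c-5p and all 6 of miR-181d-5p occurred in no other miRNA gene of the RefSeq table. Windows were searched for exact matches on both strands of the listed miRNA sequences and not in the whole genome. Near matches were not counted, and the mismatch settings of the alignment are not known. The RefSeq table gives no hairpin for Mir181c, so only its mature strands were used. A window found elsewhere in the genome would not be counted.

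The 3p strands separated all 6 loci and are shown, again with the seed in capitals, because they are the mature strands that can tell the copies apart:
miR-181a-1-3p: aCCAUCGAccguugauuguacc
miR-181a-2-3p: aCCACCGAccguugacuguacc
miR-181c-3p: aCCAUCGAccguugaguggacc
miR-181b-1-3p: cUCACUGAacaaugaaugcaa
miR-181b-2-3p: cUCACUGAucaaugaaugcaaa
miR-181d-3p: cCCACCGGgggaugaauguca
miR-181a-1-3p differed from miR-181a-2-3p by U5C and U16C, and from miR-181c-3p by U16G and U19G. The first of these, U5C, lies in the seed, so that miR-181a-1-3p shared its seed with miR-181c-3p and not with miR-181a-2-3p. miR-181b-1-3p and miR-181b-2-3p shared a seed and differed by A9U over the 21 bases compared. Every 18-nt window of the 3p strands was unique, 5 of 5 or 4 of 4 in each gene.

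The hairpins of the duplicated genes show how far the identity ran. Capitals mark the stretch around the 5p strand that both copies share:
Mir181a-1: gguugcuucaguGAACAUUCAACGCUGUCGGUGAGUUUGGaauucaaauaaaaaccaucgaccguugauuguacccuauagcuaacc
Mir181a-2: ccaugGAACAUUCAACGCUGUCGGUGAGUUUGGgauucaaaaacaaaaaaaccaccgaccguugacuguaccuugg
Mir181b-1: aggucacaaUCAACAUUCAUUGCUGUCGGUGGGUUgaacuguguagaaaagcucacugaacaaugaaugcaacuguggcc
Mir181b-2: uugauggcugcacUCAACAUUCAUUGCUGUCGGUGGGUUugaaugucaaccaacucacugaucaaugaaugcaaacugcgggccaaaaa
In the Mir181a genes the shared stretch covered 28 nt, with 1 base before and 4 bases after the 23-nt 5p strand. In the Mir181b genes it covered 26 nt, with 2 bases before the 24-nt 5p strand and 0 after it. A templated read of miR-181b-5p that runs past its annotated 3′ end therefore meets a base that differs between the copies, whereas one of miR-181a-5p does so only beyond 4 further bases.

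In these tables, reads aligned to several places were put in 1 summary row and credited to no gene. They made up 37.1% of all reads in replicate 2 and 36.6% in replicate 1. How many of them were miR-181a-5p or miR-181b-5p is not resolved by gene. The counts of Mir181a-1, Mir181a-2, Mir181b-1 and Mir181b-2 are uncertain for that reason, and a low count at one of them is no measure of the mature 5p strand it encodes. Counts are per gene, so the share of 5p and 3p reads within a locus is not given either.

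The 6 genes lie in 3 pairs. Mir181a-1 (chromosome 1, 137966455 to 137966541, plus strand, ENSMUSG00000065565.1) and Mir181b-1 (137966639 to 137966718, ENSMUSG00000065458.1) are 97 nt apart and overlap an exon of the long non-coding RNA gene A430106G13Rik on the same strand. Mir181a-2 (chromosome 2, 38852735 to 38852810, plus strand, ENSMUSG00000065423.1) and Mir181b-2 (38853830 to 38853918, ENSMUSG00000065578.1) are 1019 nt apart and lie opposite an intron of Nr6a1, which encodes the germ cell nuclear factor. Mir181c (chromosome 8, 84178873 to 84178961, minus strand, ENSMUSG00000065483.1) and Mir181d (84178716 to 84178787, ENSMUSG00000076338.1) are 85 nt apart in an intron of Nanos3, a germ cell gene read on the same strand. Positions and gene structures are those of GENCODE M21 on GRCm38.

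Levels are given as CPM, sense counts scaled to 1000000 sense counts on miRNA genes. A small RNA read spans a whole mature strand, so counts were not divided by length. Yields per molecule were not measured and may differ between miRNAs, an error that the spread between pups leaves out. Replicate 2 held 3487183 such counts and replicate 1 held 2323450. A count of 0 allows up to 3 counts, or 0.860 CPM for replicate 2 and 1.29 CPM for replicate 1. Both the intervals and this limit reflect counting error alone, since the reads carry no molecular identifiers and PCR copies count as separate reads. The heart label was checked on Mir208a, Mir208b and Mir499, the miRNAs hosted by cardiac and slow myosin genes, which held 8.89% of sense counts in replicate 2 and 9.01% in replicate 1.

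All 6 members were found in both hearts. The pair on chromosome 8 led: Mir181c averaged 2618 ± 85.5 CPM and Mir181d 1623 ± 151 CPM (SD, n = 2 each). Together the 6 genes held 0.596% of sense counts in replicate 2 and 0.568% in replicate 1. As a single gene this sum would rank 24 of 1973. The sum leaves out reads of the family that aligned to several places. Other genes lack such reads too, so this and the later ranks order genes only by reads credited to 1 gene. All 6 reached 2 CPM in both libraries, as did 327 of the 1973 genes, or 16.6%.

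Mir181c had 9340 counts, or 2678 CPM, in replicate 2 and 5942 counts, or 2557 CPM, in replicate 1. Its exact Clopper-Pearson 95% intervals were 2624 to 2733 CPM (replicate 2) and 2493 to 2623 CPM (replicate 1). It ranked 41 by mean CPM among all miRNA genes. The gene directly above it, Mir140, had 3197 and 2292 CPM in replicates 2 and 1, and the gene directly below, Mir423, had 2253 and 2925 CPM. Both of these ranges enclose that of Mir181c, so its place between them is not resolved by 2 pups.

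Mir181d had 6030 counts, or 1729 CPM, in replicate 2 and 3522 counts, or 1516 CPM, in replicate 1, and ranked 61. The libraries' 95% intervals, 1686 to 1773 CPM (replicate 2) and 1466 to 1567 CPM (replicate 1), did not overlap. Mir148a, directly above, had 1616 and 1688 CPM in replicates 2 and 1, within the range of Mir181d. Mir361, directly below, had 1458 and 1423 CPM and lay under it in both hearts.

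Mir181b-2 had 2719 counts, or 779.7 CPM, in replicate 2 and 1716 counts, or 738.6 CPM, in replicate 1, a mean of 759.1 ± 29.1 CPM (SD, n = 2). Mir181a-1 had 2331 counts, or 668.4 CPM, in replicate 2 and 1527 counts, or 657.2 CPM, in replicate 1, a mean of 662.8 ± 7.94 CPM. The loci thus stood near each other, at ranks 81 and 84, although they encode different 5p strands and lie on different chromosomes. Mir1983, directly below Mir181b-2, had 729.8 and 744.2 CPM in replicates 2 and 1 and overlapped it. Mir872 above Mir181b-2, Mir501 above Mir181a-1 and Mir16-2 below it did not overlap the member beside them in the 2 pups.

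Mir181a-2 had 348 counts, or 99.8 CPM, in replicate 2 and 462 counts, or 198.8 CPM, in replicate 1. Its mean was 149.3 ± 70.04 CPM (SD, n = 2), the widest relative spread of the 6 genes. It ranked 162 in replicate 2 and 126 in replicate 1. Mir144 and Mir574, the genes directly above and below it by mean CPM, both lay inside its range.

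Mir181b-1 was the least abundant member, with 22 counts, or 6.31 CPM, in replicate 2 and 18 counts, or 7.75 CPM, in replicate 1. The 95% intervals, 3.95 to 9.55 CPM (replicate 2) and 4.59 to 12.2 CPM (replicate 1), lay above the level that a count of 0 allows in either library. It ranked 274, between Mir106a and Mir190b, whose ranges overlapped its own. Reads were thus seen at this locus, at a depth where 22 and 18 counts carry wide intervals.

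**Figure D1:**
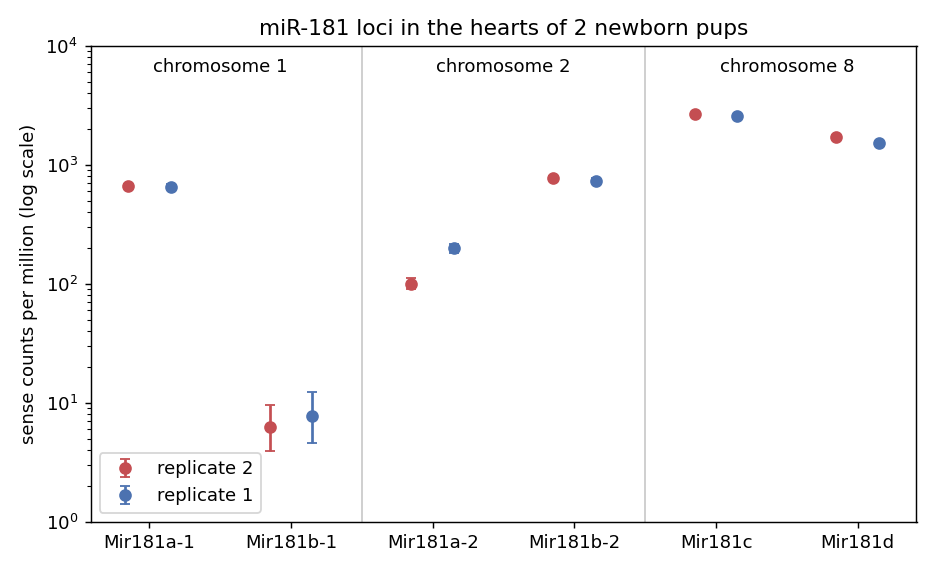
Sense CPM (log scale) of the 6 miR-181 genes in replicate 2 and replicate 1, grouped by chromosome; points are single libraries and bars are exact 95% binomial intervals for counting error. The chromosome 8 genes lie highest in both hearts, Mir181b-1 lies near 7 CPM, and Mir181a-2 stands at 99.8 CPM in replicate 2 and 198.8 CPM in replicate 1.

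The order Mir181c, Mir181d, Mir181b-2, Mir181a-1, Mir181a-2, Mir181b-1 was the same in both hearts. In all 15 pairs of members the CPM ranges over the 2 pups did not overlap. The closest pair was Mir181b-2 over Mir181a-1, with a ratio of 1.17 in replicate 2 and 1.12 in replicate 1 (log2 ratio 0.20 ± 0.038, SD, n = 2). No test was made of the order, because with 2 pups the smallest two-sided p of an exact sign flip is 0.5. The order is one of reads placed on single loci. The members whose 5p strand is not shared took the first places, and the members whose 5p strand is shared took the others.

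Within the family, the pair Mir181c and Mir181d held 73.9% of the counts in replicate 2 (exact Clopper-Pearson 95% interval 73.3% to 74.5%) and 71.8% in replicate 1 (71.0% to 72.5%). The pair Mir181a-2 and Mir181b-2 held 14.8% in replicate 2 and 16.5% in replicate 1. The pair Mir181a-1 and Mir181b-1 held 11.3% in replicate 2 and 11.7% in replicate 1. The pairs kept this order in both hearts.

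Summed by mature form, miR-181c held 44.9% of the family in replicate 2 and 45.1% in replicate 1, and miR-181d held 29.0% in replicate 2 and 26.7% in replicate 1. The Mir181a genes together held 12.9% in replicate 2 and 15.1% in replicate 1. The Mir181b genes together held 13.2% in replicate 2 and 13.1% in replicate 1. In replicate 1 the a sum was the larger, with exact Clopper-Pearson intervals of 14.5% to 15.7% for a and 12.6% to 13.7% for b. In replicate 2 the intervals overlapped, at 12.4% to 13.3% for a and 12.7% to 13.7% for b. The order of the a and b sums in replicate 2 was therefore not resolved even at counting error. Both sums, and the family total under the shares of miR-181c and miR-181d, leave out every 5p read that aligned to more than 1 place.

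**Figure D2:**
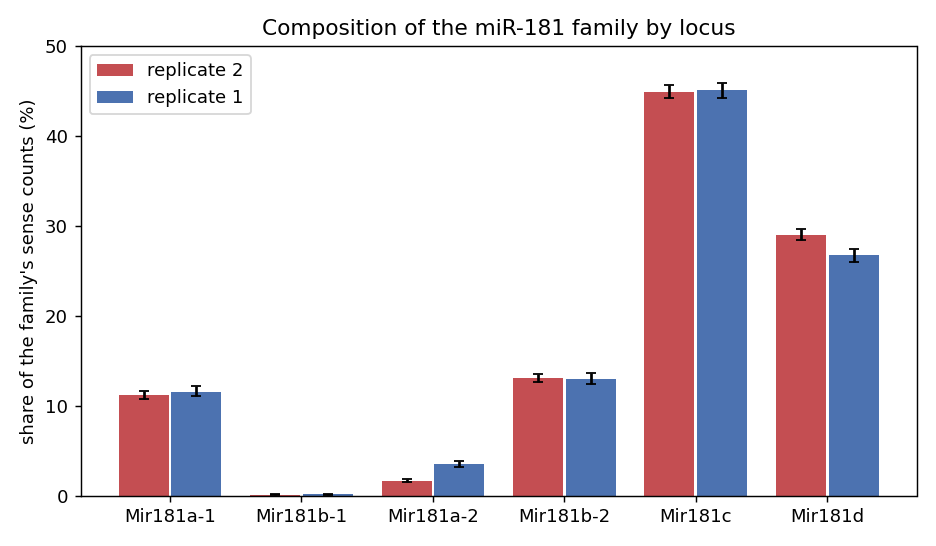
Share of the family's sense counts (percent) held by each of the 6 genes in replicate 2 and replicate 1; bars start at 0 and error bars are exact 95% binomial intervals. Mir181c holds 44.9% in replicate 2 and 45.1% in replicate 1, and Mir181b-1 holds 0.106% and 0.136%. Reads that aligned to several places are in no gene's count and not in the family total.

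The partners of a pair, which share a primary transcript, were counted at different levels in each of the 3 pairs. On chromosome 1, Mir181a-1 exceeded Mir181b-1 106-fold in replicate 2 and 84.8-fold in replicate 1 (log2 ratio 6.57 ± 0.227, SD, n = 2). On chromosome 2 the order of a and b was the opposite. There the log2 ratio of Mir181a-2 over Mir181b-2 was -2.97 in replicate 2 and -1.89 in replicate 1, which is Mir181b-2 in excess by 7.81-fold and 3.71-fold. On chromosome 8, Mir181c exceeded Mir181d 1.55-fold in replicate 2 and 1.69-fold in replicate 1 (log2 ratio 0.69 ± 0.0872). These folds were not corrected for reads that aligned to several places.

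Unequal counts within a cluster were common in these libraries. The comparison took 83 neighbouring pairs of miRNA genes on 1 strand at most 2 kb apart. Both partners had counts in both hearts, and at least 1 partner reached 2 CPM in both. The median fold of the more over the less abundant partner was 6.61. Sorted from the largest fold, Mir181a-1 over Mir181b-1 held place 8, Mir181b-2 over Mir181a-2 place 47 and Mir181c over Mir181d place 68. In reads placed on 1 gene, the chromosome 8 partners were thus closer in level than most of the 83 pairs, and the chromosome 1 partners further apart. The folds of all pairs leave out reads that aligned to several places, which need not affect both partners alike. The set of neighbouring pairs was drawn up after the members' values were seen.

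The copies of a mature form were also unequal. Mir181b-2 exceeded Mir181b-1 124-fold in replicate 2 and 95.3-fold in replicate 1 (log2 ratio 6.76 ± 0.265, SD, n = 2). Both encode the same 5p strand, and a read confined to it aligns to both copies and is credited to neither. The folds between copies thus compare only reads placed on 1 of them. Mir181a-1 exceeded Mir181a-2 by 6.70-fold in replicate 2 and 3.31-fold in replicate 1 (log2 ratio 2.23 ± 0.721). Of 45 miRNA names with numbered copies, 20 gave such a fold with a count at every copy in both hearts, and their median was 3.92-fold. By mean log2 fold, the Mir181b copies held place 1 of these 20 and the Mir181a copies place 7. Mir92-1 over Mir92-2 followed the Mir181b copies at 60.1-fold in replicate 2 and 73.5-fold in replicate 1. The comparison over copies was also set up after these values were known.

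**Figure D3:**
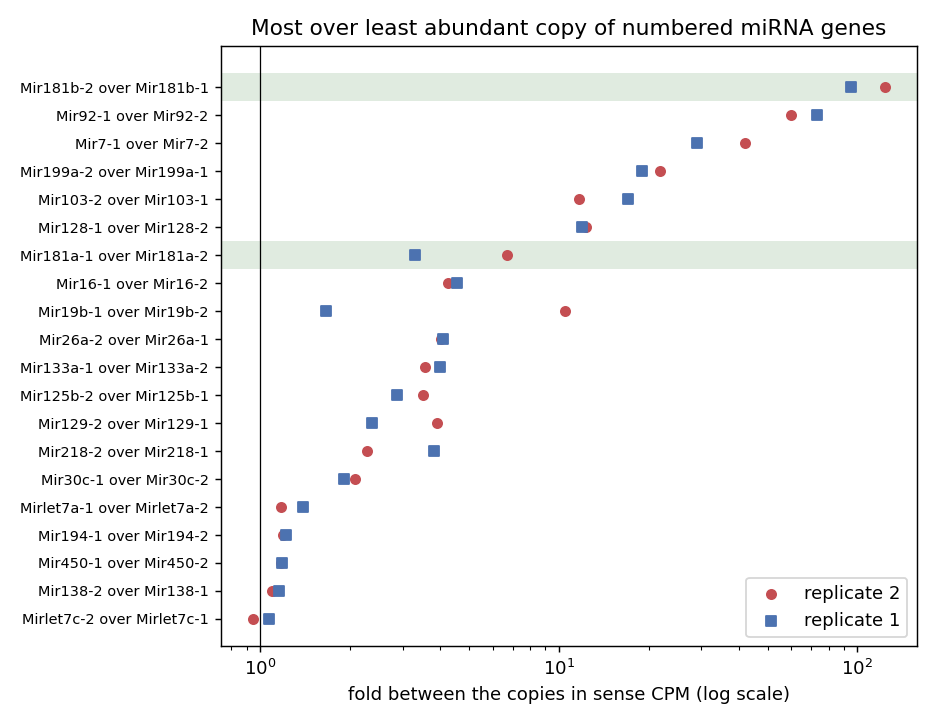
Fold in sense CPM (log scale) between the most and the least abundant copy of 20 miRNA names with numbered copies, in replicate 2 (circles) and replicate 1 (squares), with the miR-181 copies shaded. The Mir181b copies lie at 124-fold and 95.3-fold, and the Mir181a copies at 6.70-fold and 3.31-fold. Reads that aligned to several places are left out.

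As a class, 38 of 111 numbered copies, or 34.2%, reached 2 CPM in both hearts, against 289 of the 1862 other genes, or 15.5%. The 4 numbered members of the family all did. The median of the copies that did was 62.1 CPM, against 97.5 CPM for the other genes that did. Mir181b-2 and Mir181a-1 lay above both medians, and Mir181b-1 below both.

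Folds between the littermates were taken on TMM-scaled CPM with a pseudocount of 1, which shrinks them at low levels such as that of Mir181b-1. On that scale Mir181a-2 was 2.01-fold lower in replicate 2, and the other members differed by at most 1.21-fold. Each gene was tested by the exact binomial distribution, two-sided, given TMM-scaled library sizes, and p-values were adjusted by Benjamini-Hochberg over all genes. By this test 2 of the 6 members differed, 1 higher and 1 lower in replicate 2. Over all 615 genes with a count, 86 differed, or 14.0%, with 8.94% higher and 5.04% lower in replicate 2. The test compares 2 libraries at counting error only, and with 1 library per heart it cannot separate animal from library preparation. The median log2 ratio was 0.03 over the 6 members and 0.02 over all genes tested.

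Mir181a-2 fell in replicate 2, to 99.8 CPM against 198.8 CPM in replicate 1, a log2 ratio of -1.004 on TMM-scaled CPM with a pseudocount of 1 (adjusted p = 1.10e-21, exact binomial test). Of the 193 genes averaging at least 50 CPM, 0 had a lower ratio, and their median absolute log2 ratio was 0.11. Larger differences occurred among them in the other direction, such as Mir200c, averaging 95.7 CPM, at a log2 ratio of 2.08. Its pair partner Mir181b-2, on the same strand 1019 nt away, had a log2 ratio of 0.06 (adjusted p = 0.553, exact binomial test). Mir181a-1, which encodes the same 5p strand, had a log2 ratio of 0.01 (adjusted p = 1, exact binomial test). Whether these ratios differ from that of Mir181a-2 was not tested. As a share of the family, Mir181a-2 held 1.67% in replicate 2 and 3.50% in replicate 1.

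Mir181d rose in replicate 2 by a log2 ratio of 0.17 (adjusted p = 1.78e-07, exact binomial test), with 1729 CPM there and 1516 CPM in replicate 1. Mir181c, its partner 85 nt away, had a log2 ratio of 0.05 (adjusted p = 0.206, exact binomial test). With library totals in place of TMM sizes, Mir181c also passed, at a log2 ratio of 0.07 (adjusted p = 0.0369, exact binomial test), within a range of 0.0369 to 0.347 over its alternatives. Mir181b-1 had a log2 ratio of -0.27 (adjusted p = 0.883, exact binomial test), and a difference was not detectable at 22 and 18 counts.

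**Figure D4:**
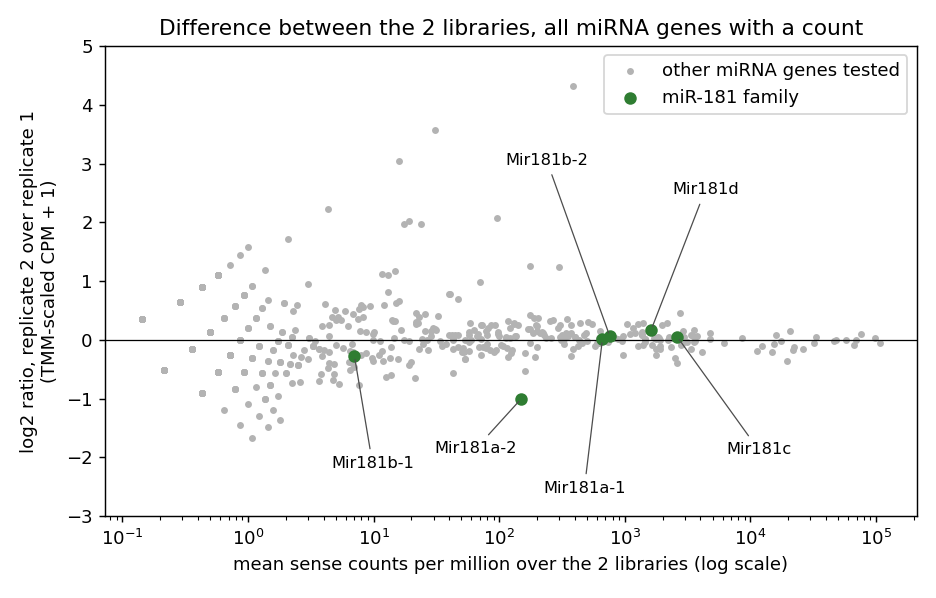
Log2 ratio of replicate 2 over replicate 1 (TMM-scaled CPM + 1) against mean CPM (log scale) for the 615 miRNA genes with a count, 1 point per gene, with the 6 miR-181 genes in green. Mir181a-2 lies at -1.004, while Mir181a-1, Mir181b-2, Mir181c and Mir181d lie between 0.01 and 0.17.

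Marker miRNAs of the cell types a whole heart can hold were read with the same test, against 8.94% of all genes tested that were higher and 5.04% that were lower in replicate 2. Their part in the difference at Mir181a-2 and Mir181d was not tested. The 3 erythroid markers Mir451a, Mir144 and Mir486 held 0.0608% of sense counts in replicate 2 and 0.0705% in replicate 1, with Mir144 lower and 0 of 3 higher. The 6 epithelial markers of the miR-200 family and Mir205 held 0.0574% in replicate 2 and 0.0204% in replicate 1, with 5 of 6 higher and 0 lower. Of the 5 leukocyte markers, 4 had a row, and 0 of these 4 passed the test. The 4 held 0.0498% in replicate 2 and 0.0536% in replicate 1, a share that leaves out Mir142. Of the 3 cardiomyocyte markers, Mir208a was lower, at 13951 CPM in replicate 2 and 15926 CPM in replicate 1. Of the 3 endothelial markers, Mir126a was lower, at 105610 CPM in replicate 2 and 108110 CPM in replicate 1, while Mir221 and Mir222 did not pass the test. Of the 2 smooth muscle markers, Mir143 was higher, at 100489 CPM in replicate 2 and 96664 CPM in replicate 1. None of the erythroid and epithelial markers was at 0 in either heart, and Mir142b, in the leukocyte list, had 1 count in replicate 2 and 0 in replicate 1. Its row held 1835 counts on the opposite strand in replicate 2 and 1580 in replicate 1, or 526.2 and 680.0 per 1000000 sense counts. Mir142, a leukocyte miRNA not analysed here as a gene, lies on that strand. These opposite-strand counts were not tested, so the result for the 4 leukocyte markers with a row does not cover Mir142.

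miRNAs with roles related to those of the family were set beside it. Of 16 miRNAs known for lymphocyte development or immune signalling, 15 had a row, with Mir146a found under the symbol Mir146. In replicate 2, 3 were higher and 2 lower, against 14.0% of all genes tested that differed in either direction. Their median level was 328.5 CPM. They ranged up to Mir21a at 20582 ± 1761 CPM, while Mir155, an activator of immune responses, had 161.1 ± 16.9 CPM and Mir150, a miRNA of mature lymphocytes, had 27.3 ± 2.14 CPM (SD, n = 2 each). Mir181a-1 therefore stood above Mir155 and Mir150. It stood below Mir92-1, at 961.0 CPM, and below every listed gene more abundant than Mir92-1. All members but Mir181b-1 stood above Mir150. The range of Mir181a-2 over the pups, 99.8 to 198.8 CPM, enclosed that of Mir155. Of 10 miRNAs known for vessels and endothelial inflammation, all 10 had a row, 2 were higher and 2 lower, beside the same 14.0%, and their median was 561.0 CPM. Mir181b-2 at 759.1 CPM lay above that median, whereas Mir181b-1 at 7.03 CPM lay below the lowest of the 10, at 57.0 CPM. Mir126a, the endothelial miRNA at the top of the list, had 106860 ± 1767 CPM. The median over the 327 genes at 2 CPM or more in both hearts was 90.0 CPM.

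Other miRNA genes lay within 100 kb of the family only on chromosome 8. Mir23a, Mir27a and Mir24-2 lie 29556 nt or more from Mir181c, on the opposite strand. Mir23a had 25032 CPM in replicate 2 and 27455 CPM in replicate 1, and Mir27a and Mir24-2 averaged 627.8 ± 16.9 and 499.4 ± 1.01 CPM (SD, n = 2 each). In reads placed on 1 gene, Mir181c and Mir181d thus lay between Mir23a and its cluster partners. These levels leave out reads that aligned to several places, so they do not rank the mature strands. Mir3074-2, opposite Mir24-2, was not analysed here. Mir709 and Gm25110, also neighbours, had 0 counts in both hearts, which allows 3 counts, or 0.860 CPM for replicate 2 and 1.29 CPM for replicate 1.

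On the strand opposite to each of the 6 members, 0 counts were recorded in both libraries, so the count of both strands equalled the sense count for every member. Over all genes, 249084 counts in replicate 2 and 164593 in replicate 1 fell on the opposite strand. Antisense small RNA at the miR-181 loci was thus not detectable at this depth, including at Mir181a-2 and Mir181b-2, which lie opposite Nr6a1. Inserts below 30 nt give no measure of longer transcripts such as that of Nr6a1.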

How the data were processed

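Small RNA was sequenced from 2 newborn hearts of 1 litter, 1 library each. The deposited tables give raw counts per miRNA gene in 3 columns: summed over strands, sense and antisense. Per the labels, reads were placed on mm10, and the deposited library descriptions name GENCODE M4; the aligner, counter and mismatch settings are not given in the sources used here. Of 7441784 reads in replicate 2 and 5052766 in replicate 1, 46.9% and 46.0% were sense counts on genes. The 4 summary rows, left out of totals and tests, took the rest: multiply aligned reads (37.1% and 36.6%), unmapped reads (10.5% and 11.5%), reads outside features (5.62% and 5.93%) and 0 ambiguous reads.

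Gene identifiers were matched without version to GENCODE M21 on GRCm38 (1894 of 1973), and symbols to the RefSeq miRNA table (927 of 1973). Mir146a was found through the synonyms RefSeq lists. The version of Mir181c's identifier differs between the deposited table and M21, so the interval counted may differ from the one printed.

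TMM sizes came from edgeR 4.0.16, DESeq2 1.42.0 gave alternative size factors, and exact tests used scipy 1.17.1 with adjusted p under 0.05. The test was tried on data simulated with counting error alone, which hold no spread between pups and so cannot show false calls from that spread. Members and lists were chosen with earlier results of these data known. Named are the 6 members, the genes directly above and below each by mean CPM, miRNA genes within 100 kb and the up to 3 most abundant genes per list; Mir92-1, Mir92-2, Mir150, Mir155 and Mir142b were named after their values were seen. Both comparisons over neighbouring pairs and copies were added after seeing the data. No likeness of pattern was computed, since 2 libraries give none. With 2 pups, the SD covers animal and library preparation together and no other litter.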

Additional observations from a re-analysis of the deposited data

How the results depend on the processing

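The family's share of sense counts, 0.582% on average, was 0.543% with both strands in the total and 0.270% of all reads. It ranged from 0.568% to 0.596% over single libraries. None of these values counts the members' reads that aligned to several places. The order of the 15 pairs was the same in each library alone. Shares by pair and form and the ratios within pairs have no alternative that bears on their stability: the members have 0 counts on the opposite strand, and with 2 pups a mean without one of them always moves by less than the SD. Leaving out replicate 1 gives Mir181a-2 at 99.8 CPM, and leaving out replicate 2 gives 198.8 CPM, so folds that involve it rest on the library used. Of 42 alternative log2 ratios of the members between libraries, 41 kept direction and call; the exception was Mir181c with library totals, with which 3 members were called. Mir181a-2 stayed between -1.01 and -0.98, and Mir181d between 0.17 and 0.19. Genes called ranged from 86 to 93. At 1 and 10 CPM, 36.0% and 25.2% of numbered copies and 17.0% and 11.7% of other genes were detected. The members whose 5p strand has no unique window numbered 4 with 16-nt and 20-nt windows too. Depth limits Mir181b-1 most. No paired analysis was possible because the series has 1 group.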

Other observations

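Genes were also grouped by whether RefSeq gives any of their mature sequences to another gene as well, a grouping made after seeing the data. Such genes numbered 87 among those matched, and they held 1.09% of sense counts in replicate 2 and 1.11% in replicate 1. Of these, 39, or 44.8%, reached 2 CPM in both hearts, with a median of 69.6 CPM. The 829 matched genes with no shared mature sequence held 86.5% in replicate 2 and 86.8% in replicate 1, and 260 of them, or 31.4%, reached 2 CPM in both hearts, with a median of 96.4 CPM. Mir181a-1, Mir181a-2, Mir181b-1 and Mir181b-2 belong to the first group, and Mir181c and Mir181d to the second.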
